A study of Mus musculus with 2 samples.

Results

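Collagen leaves the cell only after its chains have been hydroxylated, folded and checked, and 10 mouse genes of that maturation are described here in LM8 cells that express human PHD4. They are the prolyl 4-hydroxylase genes P4ha1, P4ha2 and P4hb, the lysyl hydroxylase genes Plod1, Plod2 and Plod3, the collagen chaperone gene Serpinh1, and the lysyl oxidase genes Lox, Loxl1 and Loxl2. They were chosen by function, with earlier results of these data known, out of 12393 genes on the array. LM8 is a mouse osteosarcoma line. The hPHD4 clone was a stable transfectant with a full-length human PHD4 cDNA in the pcDNA3.1 vector, whose cytomegalovirus promoter drives constant expression, and the control clone held the vector alone. G418 at 0.5 mg/ml selected both, and 1 array was hybridised per clone, so each group is a single clone, no difference has a replicate check, and no test or p-value can be given.

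Prolyl 4-hydroxylase of the endoplasmic reticulum hydroxylates prolines in the collagen repeat, which makes the triple helix stable at body temperature. The enzyme pairs an alpha subunit that holds the catalytic site with protein disulfide isomerase as its beta subunit. Lysyl hydroxylases prepare lysines for sugar attachment and for cross-links, the chaperone binds the folded helix on its way to the Golgi, and secreted lysyl oxidases start the cross-links between fibrils. PHD4, a membrane protein of the endoplasmic reticulum, belongs to the same family of iron and 2-oxoglutarate dependent prolyl hydroxylases. The genes for the alpha subunits, Plod2, Lox and Loxl2 are also known as genes induced in hypoxia through hypoxia-inducible factor (HIF).

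In the hPHD4 clone P4ha2 was 2.15-fold lower than in control cells and Lox was 1.52-fold lower. Plod2 was 1.41-fold higher and Plod3 1.20-fold higher. P4ha1, P4hb, Plod1 and Serpinh1 lay within 1.12-fold of the control clone in either direction. In such bulk RNA, fewer cells with a transcript and less of it per cell cannot be told apart. Of the 10 genes, 9 had a probe set of their own on the array and 8 were measured, that is, had a probe set above the floor in both clones. The floor was the 40th percentile of each array's signals, at a log2 signal of 6.34 in hPHD4 cells and 6.08 in control cells. The 18 probe sets of 4 spiked-in control transcripts, added to every hybridisation mix, had a median log2 ratio of −0.39 between the arrays; scaling to them adds 0.39 to every log2 ratio given here, which turns the sign of values between −0.39 and 0 and puts the median of all measured genes at 0.42 in place of 0.03.

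The alpha subunit genes P4ha2 and P4ha1 lay apart in their ratios, and their promoters are shown first for that reason. The promoter of Plod3, which lay on the other side of 0, is shown with them. The sequences are RefSeq's, build GRCm38.p6, all on the plus strand, and hold only bases upstream of the annotated gene. Capitals mark ACGTG or GCGTG, the core of the HIF binding element, on either strand, so that CACGT and CACGC mark the reverse strand.
P4ha2, chr11:54100674-54100923: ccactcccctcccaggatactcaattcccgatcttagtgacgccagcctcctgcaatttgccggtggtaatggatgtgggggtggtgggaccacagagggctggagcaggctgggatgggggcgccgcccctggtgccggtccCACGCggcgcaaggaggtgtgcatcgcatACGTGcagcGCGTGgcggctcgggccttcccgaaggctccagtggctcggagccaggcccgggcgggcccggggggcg
P4ha1, chr10:59323046-59323196: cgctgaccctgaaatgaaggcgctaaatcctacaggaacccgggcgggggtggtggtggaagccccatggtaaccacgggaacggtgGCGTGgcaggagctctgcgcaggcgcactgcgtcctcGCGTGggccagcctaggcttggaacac
Plod3, chr5:136986769-136987018: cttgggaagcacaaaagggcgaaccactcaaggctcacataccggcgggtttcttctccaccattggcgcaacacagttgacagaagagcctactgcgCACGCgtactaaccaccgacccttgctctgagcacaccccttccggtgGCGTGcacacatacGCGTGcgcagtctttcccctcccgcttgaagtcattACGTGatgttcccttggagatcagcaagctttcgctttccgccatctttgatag
The P4ha2 stretch held 3 matches, the Plod3 stretch 4, and the shorter P4ha1 stretch 2. In the full 250 bases before the promoter start, P4ha2 and P4ha1 held 3 each, of which 1 was ACGTG and 2 were GCGTG in both genes. The P4ha1 window ran into the annotated gene after its 151 printed bases, and its ACGTG match, read as CACGT, lay in that part. P4hb held 2, Plod1 held 1 and Serpinh1 held 1. Of 32851 promoter windows of the same length, 38.6% held at least 1 match and 6.58% at least 3, and of the 9178 windows with at least 60% GC, 15.6% held at least 3. These matches are letters in a window, not known binding sites, and their part in the ratios was not tested. The promoter table held 6 of the 10 genes.

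**Figure D1:**
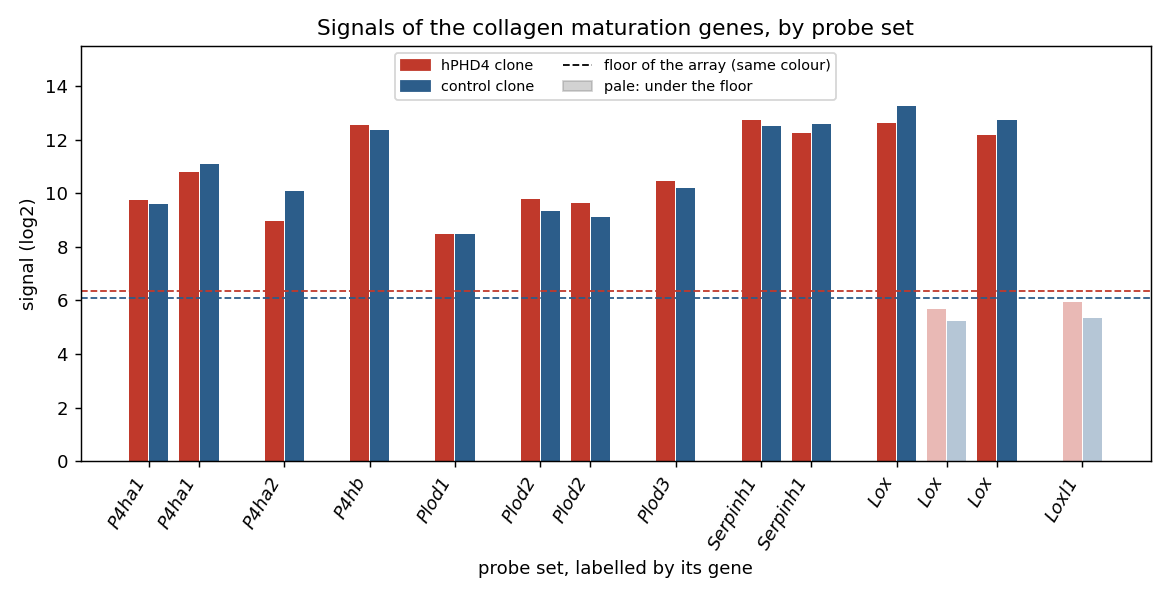
Log2 signal of each probe set of the collagen maturation genes in hPHD4 cells (red) and control cells (blue), with the floor of each array as a dashed line. The bars of P4ha2 and of the bright Lox probe sets are shorter in hPHD4 cells, both Plod2 probe sets are taller there, and the pale bars of 1 Lox probe set and of Loxl1 lie under both floors.

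P4ha2 encodes the second catalytic alpha subunit of prolyl 4-hydroxylase, the form prominent in cartilage and bone. Its only probe set had a linear signal of 500.9 in hPHD4 cells, against 1078 in control cells. Its log2 ratio was −1.11, and the signals were far above both floors. Disagreement between probe sets of the same gene is the only error these data offer. It had a pooled standard deviation (SD) of 0.28 on the log2 scale for the brightest of 3 equal groups of measured genes, 0.37 for the middle group and 0.40 for the dimmest, and it leaves out differences between cultures, clones and arrays. The ratio of P4ha2 was larger than that SD, and 55 of 7452 measured genes (0.738%) had a lower ratio. Scaled to the spike-ins, the log2 ratio was −0.72 and no longer reached 2-fold.

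P4ha1, the main catalytic alpha subunit in most cells, was close to equal in the clones. Its 2 probe sets had linear signals of 853.6 and 1784 in hPHD4 cells, against 768.9 and 2168 in control cells. The first lay higher in hPHD4 cells and the second lower, with log2 ratios of 0.15 and −0.28. Their mean of −0.07 was smaller than the SD of 0.28. P4hb encodes protein disulfide isomerase, which also forms disulfide bonds in many other proteins. It had a linear signal of 5922 in hPHD4 cells and 5309 in control cells, a log2 ratio of 0.16, again within the SD.

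A difference between the ratios of 2 genes on the same arrays does not depend on a constant scaling of either array. The ratio of P4ha2 minus that of P4ha1 was −1.04 ± 0.34, a 2.06-fold lower ratio of P4ha2 to P4ha1 signal in hPHD4 cells; the error here is the probe set SD carried through both genes. The difference was between −1.26 and −0.82 by the probe set of P4ha1 used, and between −1.08 and −0.82 over 10 other ways of processing. P4ha2 lay further below the beta subunit gene P4hb, by a difference of −1.26 ± 0.39.

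The lysyl hydroxylase genes were level or higher in hPHD4 cells. Plod2 encodes the form that hydroxylates the telopeptides of collagen, where bone-type cross-links begin. Its probe sets had linear signals of 892.7 and 792.5 in hPHD4 cells, against 642.8 and 554.6 in control cells. Both were higher in hPHD4 cells, with log2 ratios of 0.47 and 0.52 and a mean of 0.49, which was larger than the SD of 0.28. A higher ratio was held by 5.35% of the brightest group of genes, to which it belongs, and by 12.7% of all measured genes.

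Plod3, an enzyme that both hydroxylates lysine and adds sugars to it, had a linear signal of 1410 in hPHD4 cells and 1171 in control cells. Its log2 ratio of 0.27 did not exceed the SD. Scaled to the spike-ins, Plod3 was at 0.65 and Plod2 at 0.88, both beyond the SD and past 1.5-fold. Plod1 encodes the form that acts mainly on the helical part of collagen. It had a linear signal of 359.1 in hPHD4 cells and 360.7 in control cells, a log2 ratio of −0.01. The ratio of Plod2 was above that of Plod1 by 0.50 ± 0.42 and above that of Plod3 by 0.23 ± 0.34, so that the order of Plod2 and Plod3 was within the error.

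Serpinh1, the chaperone of the endoplasmic reticulum specific to collagen, was bright in both clones. Its probe sets had linear signals of 6799 and 4837 in hPHD4 cells, against 5914 and 6092 in control cells. They pointed opposite ways, with log2 ratios of 0.20 and −0.33 and a mean of −0.07. The lower value came from a probe set of a type whose probes may bind other transcripts too (ID ending in _x_at). Without that probe set the ratio was 0.20.

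Lox encodes lysyl oxidase, the secreted copper enzyme that oxidises lysine and hydroxylysine. Its 2 measured probe sets had linear signals of 6236 and 4636 in hPHD4 cells, against 9812 and 6792 in control cells. Both were lower in hPHD4 cells, at log2 ratios of −0.65 and −0.55 and a mean of −0.60, beyond the SD of 0.28. A lower ratio was held by 4.76% of measured genes and by 3.82% of the brightest group. The gene lay just past 1.5-fold, and in 5 of 9 other ways of processing it did not reach it. Its remaining probe set was under the floor on both arrays, at linear signals of 51.6 in hPHD4 cells and 37.96 in control cells, and a floor set at the 20th percentile brought it into the mean and made the ratio of the gene −0.25. Scaled to the spike-ins the ratio was −0.22.

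Loxl1, a lysyl oxidase that works with elastic fibres, was under the floor in both clones, at linear signals of 62.3 in hPHD4 cells and 41.1 in control cells, so no ratio is given for it. Loxl2 had no probe set of its own. The probe set annotated to both Loxl2 and Gm21451 was also under both floors, at 25.4 in hPHD4 cells and 5.92 in control cells. These genes were therefore not measurable here, which is no statement on their absence.

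**Figure D2:**
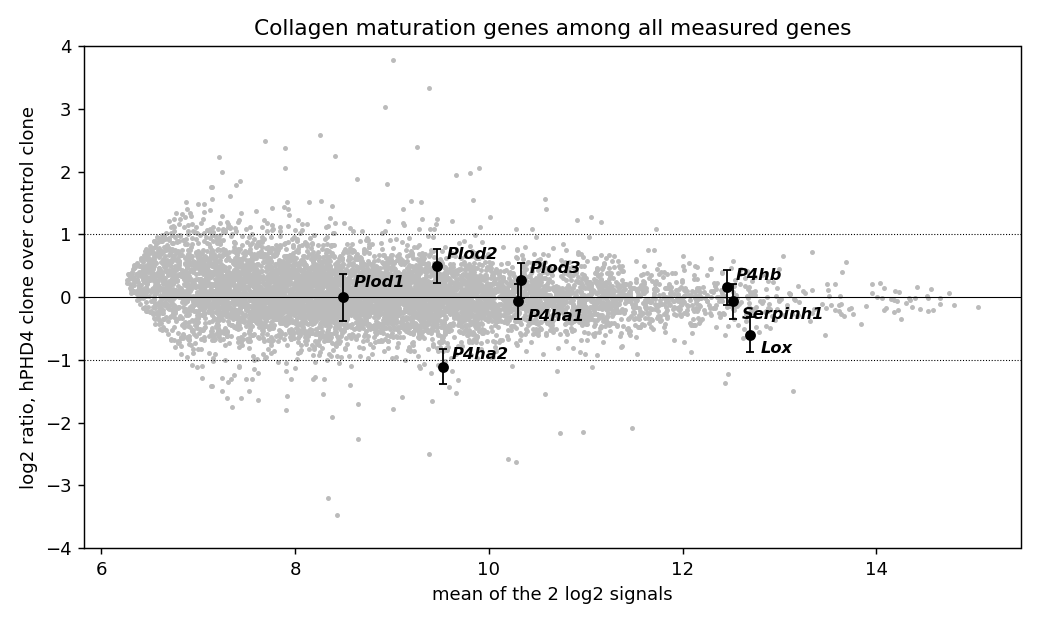
Log2 ratio, hPHD4 clone over control clone, against the mean of the log2 signals for 7452 measured genes (grey) and the 8 measured collagen maturation genes (black); bars are the SD between probe sets at that brightness, and dotted lines mark 2-fold. P4ha2 lies below the 2-fold line at −1.11, Lox at −0.60 and Plod2 at 0.49, and the other 5 have bars that reach 0.

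Among the 8 measured genes, 1 lay 2-fold or more below control cells, where the share of all measured genes was 0.98%, and 2 lay 1.5-fold or more below, where it was 5.22%. None was at least 1.5-fold higher, against 8.94% of all measured genes, and likewise 0 were at least 2-fold higher, against 1.89%. The counts are too small to set the genes apart from this background. Ratios above 0 were held by 3 of the 8 and by 53.6% of all measured genes. The median log2 ratio of the 8 was −0.04, and that of all measured genes was 0.03. Scaled to the spike-ins, 6 of the 8 were above 0, all but P4ha2 and Lox, and the share of all measured genes above 0 is not given. The median of the 8 was then 0.35 and that of all measured genes 0.42. On the deposited scale 3 of the 8 exceeded the SD between probe sets at their brightness, P4ha2 and Lox downward and Plod2 upward. Between 2 and 4 did so under the 9 other ways of processing. Scaled to the spike-ins 7 did, and Lox did not: P4ha1 stood at 0.32, P4hb at 0.54, Plod1 at 0.38 and Serpinh1 at 0.32. The genes known as HIF targets were on both sides too, with P4ha2 and Lox lower, Plod2 higher and P4ha1 near 0.

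Other genes of collagen modification, enzymes and their partners, were mostly lower in hPHD4 cells. Of 10 listed genes 7 were measured, and 6 of these had ratios below 0, against 46.4% of all measured genes; their median log2 ratio was −0.49 (−0.11 scaled to the spike-ins, with 4 of 7 below 0), with 2 at least 1.5-fold lower and 0 higher. Loxl3, another lysyl oxidase, had linear signals of 369.4 in hPHD4 cells and 600.3 in control cells, a log2 ratio of −0.70. P3h1, the prolyl 3-hydroxylase of collagen, had a ratio of −0.69, with its probe sets at −0.89 and −0.49. The highest of the 7 was Loxl4 at 0.08, close to the floor.

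P3h1, Crtap and Ppib encode the subunits of a single complex, which 3-hydroxylates collagen and isomerises its prolines, and this grouping was made after the values were seen. Crtap, which encodes the cartilage-associated protein, had linear signals of 1910 in hPHD4 cells and 2688 in control cells and a log2 ratio of −0.49. Ppib, encoding cyclophilin B, had a ratio of −0.72, with its probe sets at −1.06 and −0.37. The larger difference came from a probe set whose probes may bind other transcripts, and the ratio was −0.37 without it. All 3 genes were lower in hPHD4 cells, and so was Colgalt1, the galactosyltransferase acting on hydroxylysine, at −0.57 (probe sets −0.67 and −0.48).

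Over the 10 measured genes of further folding and export factors of collagen the median was −0.23 (0.16 scaled to the spike-ins), with 6 below 0. At least 1.5-fold lower was 1 (Ppib), against 5.22% of all measured genes, and 0 were higher by that much, against 8.94%. Creb3l1, a transcription factor of collagen secretion in osteoblasts, was at −0.58, and Sec24d, a coat protein of vesicles that carry collagen, at −0.48. Mia3, which loads collagen into those vesicles, was at 0.27. The fibrillar collagen chains themselves had a median of −0.20 over 5 measured genes (0.19 scaled to the spike-ins), 4 below 0. Col1a2 of type I collagen was at −0.43 with both probe sets below 0, while those of Col1a1 stood at −0.61 and 0.39. Col5a2 was at −0.56 and Col2a1 at 0.57; 0 chains were past 1.5-fold on the mean of their probe sets.

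**Figure D3:**
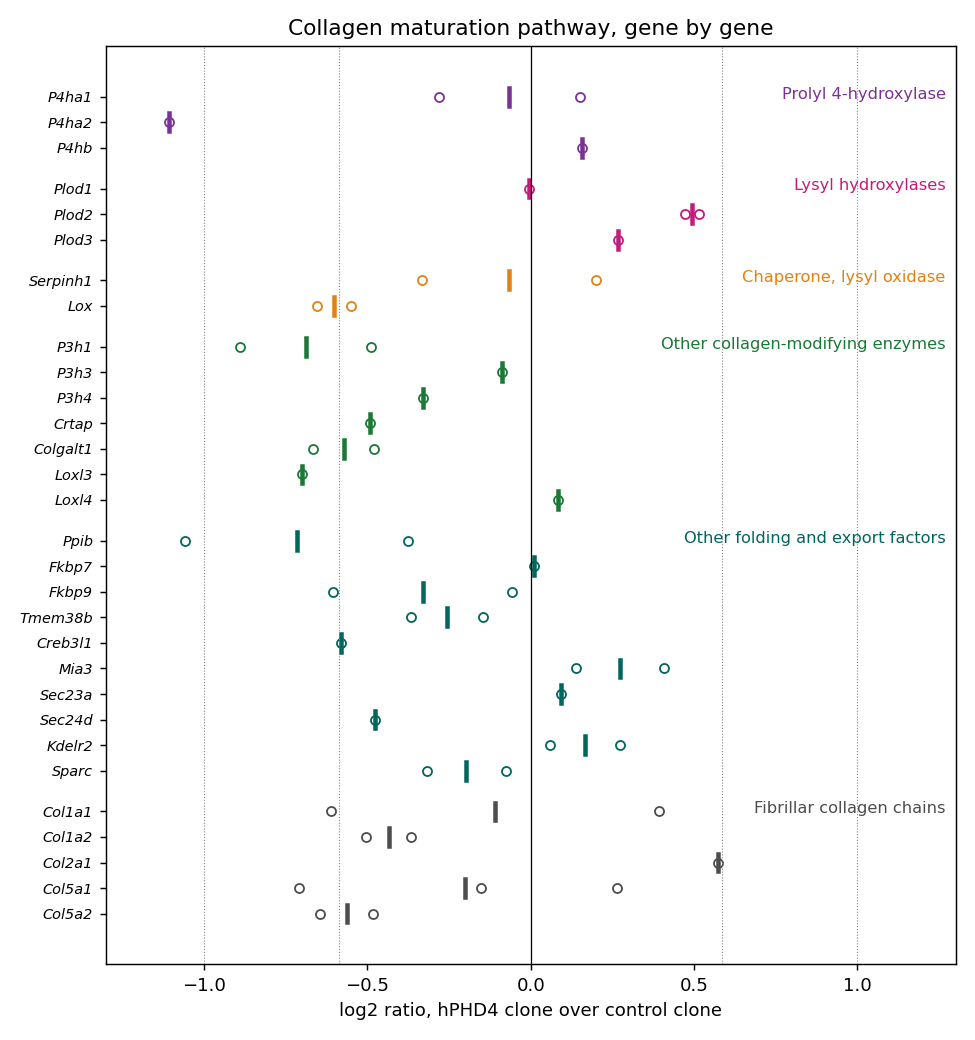
Log2 ratio, hPHD4 clone over control clone, of every measured gene of the collagen maturation pathway; open circles are probe sets, bars are gene means, and dotted lines mark 1.5-fold and 2-fold. The lysyl hydroxylase genes lie at or above 0, from −0.01 to 0.49, whereas 6 of the 7 other collagen-modifying enzymes and their partners lie below 0.

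General folding factors of the endoplasmic reticulum, which work beside P4hb, had a median of 0.12 over 11 measured genes, 7 above 0 and 0 past 1.5-fold in either direction. Scaled to the spike-ins the median was 0.51, with 10 above 0 and 4 at least 1.5-fold higher. The median of all 7452 measured genes was then 0.42, and 2440 of them were at least 1.5-fold higher. Their share above 0 is not given. Hspa5, encoding the chaperone BiP, had the highest ratio, 0.58 (probe sets 0.44 and 0.72), and the isomerase gene Pdia4 the lowest, −0.44. After quantile (0.65) or loess (0.64) scaling Hspa5 passed 1.5-fold. With chromosome medians subtracted it was at 0.47. It was at 0.44 with its brightest probe set alone or without probe sets that may bind other transcripts. In procollagen processing 3 of 8 listed genes were measured, with a median of −0.09 (0.30 scaled to the spike-ins) and 0 past 1.5-fold. Bmp1, the protease that trims procollagen and activates lysyl oxidase, was at 0.39, and its enhancer gene Pcolce at −0.15.

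Copper, iron and ascorbate, on which these enzymes depend, are supplied by genes whose median was 0.22 over 7 measured, with 0 past 1.5-fold. With the brightest probe set per gene 1 was at least 1.5-fold higher, beside 709 of all measured genes. Scaled to the spike-ins 4 were, at a median of 0.61, beside 2440 of all 7452 measured genes, whose median was 0.42. Atp7a, the pump that delivers copper to lysyl oxidase, was at 0.53, and the copper importer gene Slc31a1 at −0.47. Matrix partners of lysyl oxidase diverged around a median of 0.20 over 6 measured genes. At least 1.5-fold higher were 2, against 8.94% of all measured genes, and 1 was lower by that much, against 5.22%. Fmod (fibromodulin), which binds collagen and lysyl oxidase, was 2.93-fold higher in hPHD4 cells. Eln (elastin) was 1.92-fold higher on a control signal of 100.5, near the floor of 67.8, and with no filter its log2 ratio was 0.47 in place of 0.94. Fbln5, which tethers lysyl oxidases to elastin, was 3.05-fold lower, with a signal of 89.9 in hPHD4 cells near the floor of 81.1. With the floor at the 60th percentile neither Eln nor Fbln5 was measured, which left 1 gene at least 1.5-fold higher and 0 lower.

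The oxygen-sensing relatives of these hydroxylases gave no common direction on the deposited scale. All 3 that were measured lay above 0 scaled to the spike-ins, which raises every gene by the same amount. P4htm, the mouse gene of PHD4, had no probe set of its own. The transgene is a human cDNA, and its expression was not checked on these mouse arrays. HIF hydroxylases, 3 of 5 measured, had a median of −0.03 (0.36 scaled to the spike-ins), with Egln2 at 0.57, and 0 were past 1.5-fold. For other hypoxia genes the median was 0.09 over 12 measured, 7 above 0 and 0 past 1.5-fold, with Pdk1 (pyruvate dehydrogenase kinase) highest at 0.49 and Ddit4 lowest at −0.33. The probe sets of Slc2a1 stood at −0.17, 0.33 and 0.98, the last being the brightest. With the brightest probe set per gene 1 hypoxia gene was at least 1.5-fold higher, beside 709 of all measured genes. Car9 was above the floor in control cells only, at linear signals of 72.0 in hPHD4 cells and 110.1 in control cells. With the floor at the 20th percentile 1 hypoxia gene was at least 1.5-fold lower, beside 638 of 9613 measured genes. Scaled to the spike-ins all 12 were above 0, at a median of 0.48, and 4 were at least 1.5-fold higher. That scaling lifted the array-wide median to 0.42 and put 2440 of 7452 genes past 1.5-fold upward. The array-wide share above 0 is not given, so the common sign does not set these 12 apart. P4ha2 and Lox lay below the lowest of the 12 hypoxia genes, and Plod2 was level with the highest of them.

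**Figure D4:**
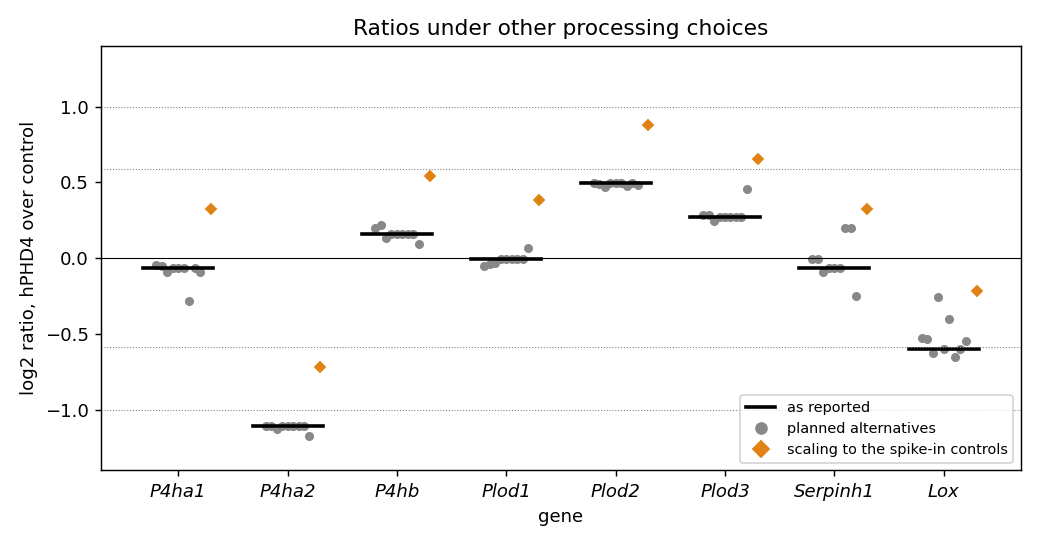
Log2 ratio of each measured collagen maturation gene as reported (black bar), under 9 other ways of processing (grey circles) and with the arrays scaled to their spike-in controls (orange diamonds); dotted lines mark 1.5-fold and 2-fold. P4ha2 stays below the 2-fold line under all 9, from −1.17 to −1.11, though changes of floor, filter or probe set could not move its only probe set. The scaling to the spike-ins moves every gene up by 0.39.

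Markers of cell types and array controls were read on the same arrays. Of the osteoblast markers on the array, 6 of 6 were measured, at a median log2 ratio of 0.22. Sp7 was at 0.23, Dlx5 at 0.30 and Alpl at 0.21, and the probe sets of Ibsp at 1.56 and 0.61. The probe sets of Sparc were at −0.32 and −0.08, and those of Col1a1 at −0.61 and 0.39. Of mesenchymal markers 4 of 5 were measured, at a median of −0.57, and of chondrocyte markers 2 of 3, at 0.14. The chondrocyte markers differed in sign, with the probe sets of Sox9 at −0.32 and −0.27 and Col2a1 at 0.57. Of leukocyte markers 4 of 6 were measured, at a median of 0.39, with summed linear signals of 663 in hPHD4 cells and 453 in control cells, and 0 of 4 epithelial and 1 of 4 endothelial markers were. The endothelial sum was 229 in hPHD4 cells and 149 in control cells, and the epithelial sum was 213 in hPHD4 cells and 104 in control cells. Such sums take each array's brightest probe set of every marker, also of markers under the floor. Kdr, the measured endothelial marker, had a log2 ratio of 0.07. In hPHD4 and control cells the osteoblast sums were 23677 and 26354, the mesenchymal sums 21221 and 22483, and the chondrocyte sums 1938 and 1398. Ptprc, Pecam1, Cdh5, Epcam and Cdh1 were under the floor in both clones. Cd68, Csf1r, Lyz2, Adgre1 and Kdr were above it in both, and Cd3e and 1 probe set each of Csf1r and Krt8 were above it in hPHD4 cells only. A further probe set of Csf1r was above the floor in control cells only, at log2 signals of 4.31 in hPHD4 cells and 6.17 in control cells. So was 1 of Pdgfrb, a mesenchymal marker, at 5.98 in hPHD4 cells and 7.05 in control cells. The ratio of 3′ to 5′ signal was 0.98 in hPHD4 cells and 0.91 in control cells for Gapdh, and for beta-actin it was 1.86 in hPHD4 cells and 1.58 in control cells. The part of these differences in the results was not tested.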

How the data were processed

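Targets labelled with biotin were made from 5 µg of total RNA and hybridised to Affymetrix mouse arrays, per the labels' protocols. The authors deposited 1 log2 value for each probe set. MAS5 is the tool that the submitters' processing notes name, with its version and settings not given in the sources used. Taken as powers of 2 and trimmed by 2% at each end, they averaged 500.2 on both arrays, a global scaling to the same target. Of 22690 probe sets, 20380 carried 1 gene symbol, 691 several and 1555 none, beside 64 controls; only those with 1 symbol were used. The table that gave chromosomes found 20351 of them by gene number.

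A probe set above the 40th percentile of non-control probe sets on both arrays was measured, and a gene's value was the mean log2 ratio, hPHD4 over control, of its measured probe sets. Every gene of the set was named; of the other lists, up to 4 measured genes past 1.5-fold in each direction were, and further genes were named after their values were seen. The genes, lists and alternatives were chosen with earlier results of these data known. With 1 array per group no test was run, the number of arrays limits the precision, and the SD between probe sets took the place of replicate error. The steps were tested on simulated data. Other ways of processing changed the scaling (quantile, loess with a span of 0.3, median centring), the floor, the filter, the probe sets used and the chromosome background; scaling to spike-in controls was added after seeing the data. Python 3.11.15, NumPy 2.4.6 and pandas 2.3.3 were used.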

Additional observations from a re-analysis of the deposited data

How the results depend on the processing

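No paired analysis was possible because each clone had 1 array, and no replicate could be left out. P4ha2 kept its side of 2-fold under 9 other ways of processing. Its only probe set is bright and not of a type that may bind other transcripts. Changes of floor, filter or probe set therefore could not move it. With quantile, loess or median scaling, or chromosome medians subtracted, it lay between −1.17 and −1.11. Plod2 lay between 0.47 and 0.49 in the 9 ways. Only Plod1 and Serpinh1, both near 0, changed sign in any of the 9. The count of genes at least 1.5-fold lower was 1 in place of 2 with quantile or loess scaling, with a 20th percentile floor, with no filter and with chromosome medians subtracted, since Lox was then short of 1.5-fold. With that floor 1 gene was at least 1.5-fold higher, Loxl1 at 0.60, which is under the floor as reported. Scaling to the spike-ins was chosen after seeing the data and moved the median of all measured genes to 0.42. It left 0 genes 2-fold lower, 1 gene 1.5-fold lower and 2 genes 1.5-fold higher, with a median of 0.35 over the set. List medians were then −0.11 (other collagen-modifying enzymes and their partners), 0.16 (folding and export), 0.30 (procollagen processing), 0.19 (fibrillar chains) and 0.51 (general folding factors). They were 0.36 (HIF hydroxylases), 0.48 (hypoxia genes), 0.61 (copper, iron and ascorbate) and 0.58 (matrix partners) for the remaining lists. Relative to the shift of all genes the order of the genes was unchanged. Genes at least 2-fold higher over the whole array numbered 605 for a 20th percentile floor, 45 for a 60th and 605 with the spike-ins, in place of 141; those at least 2-fold lower numbered 188, 34 and 30, in place of 73. At least 1.5-fold higher were 1579, 251 and 2440, in place of 666, and at least 1.5-fold lower 638, 244 and 76, in place of 389.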

Other observations

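A second probe set of the lysyl oxidase gene Loxl4 was above the floor in hPHD4 cells only, at log2 signals of 6.42 in hPHD4 cells and 5.19 in control cells, where the floors were 6.34 in hPHD4 cells and 6.08 in control cells. Postn (periostin), a matrix partner of lysyl oxidase, was under the floor in hPHD4 cells and above it in control cells, at linear signals of 42.1 in hPHD4 cells and 196.4 in control cells.

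Of the 18 spike-in probe sets, which detect 4 bacterial and phage transcripts, 17 had lower signals on the array of the hPHD4 clone, with log2 ratios from −0.73 to 0.13. Probe sets of the same spiked transcript are not independent. Differences between genes on the same arrays, such as that of P4ha2 from P4ha1, are not touched by a constant offset of this kind.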
